A study of Sus scrofa with 37 samples.

Results

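The interferon response genes described here are 9 pig genes chosen by name: the sensors IFIH1 and DDX58, the transcription factors IRF1, IRF7 and STAT2, and the effectors MX1, MX2, ISG15 and IFI6. Each was sought among the rows of both deposited count tables through its Ensembl pig identifier, and 9 of 9 were found among 25880 gene identifiers, of which 14857 had a symbol. DDX58, which encodes the sensor RIG-I, is listed under the symbol RIGI and is called RIGI below. The study sequenced RNA from pancreas and from isolated islets of pigs to compare animals of higher and lower islet density. The islets were purified and then cultured for 7 days, whereas the pancreas pieces of 50 mg were taken at retrieval of the organ. The groups were islets labelled High (8 libraries), islets labelled Low (9), islets of animal 12AS51 with no density label (1), pancreas labelled High (8) and pancreas labelled Low (9). The labels name no treatment, breed, age or genotype and do not state how density was scored. The label belongs to the sample, and it was High for islets and Low for pancreas in 12FS135 and 12FS161, and Low for islets and High for pancreas in 15LS26 and 16IS5.

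Interferons are secreted proteins that cells release when receptors such as RIG-I and MDA5 (the product of IFIH1) detect foreign or misplaced nucleic acid. They signal through Janus kinases to a complex that contains STAT2 and IRF9 and switches on the interferon-stimulated genes, while IRF1 and IRF7 drive transcription of interferons and of further antiviral genes. In the pancreas the pathway is best known from type 1 diabetes in humans, where interferon-stimulated genes are expressed in islets.

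Counts summed to 3237653 to 6702589 in islet libraries, to 1855075 to 3922006 in High pancreas libraries and to 265000 to 536014 in 7 of the 9 Low pancreas libraries. Those 7 are called shallow here, and the other Low pancreas libraries (12FS161 and 15LS30) held 2234639 and 1884982. Levels are given as CPM, the counts per 1000000 counts of a library, and 3 counts, taken as the detection floor, equal 5.60 to 11.3 CPM in shallow libraries and 0.448 to 1.62 CPM in all others. The 15 endocrine markers matched the tissue labels, with a summed level of 55003 to 100322 CPM in the 17 labelled islet libraries and 313 to 16221 CPM in pancreas. The 16221 CPM was in 1 of the 2 Low pancreas libraries that were not shallow, and the other held 835 CPM. High pancreas libraries had 659 to 3364 CPM. The islets of 12AS51 stood apart at 8486 CPM, with a scaling factor of 0.123 against 0.828 to 1.54 in the other islets, and they had the lowest CPM of all islet libraries for 8 of the 9 genes. The 10 most abundant genes of that library held 87.8% of its counts, and it was kept in the comparison of islets with pancreas. The acinar markers (11 of 14 with a row) summed to 170040 to 251136 CPM in High pancreas, 97601 and 120360 CPM in the deeper Low pancreas libraries and 12463 to 27822 CPM in the shallow ones. Lymphocyte markers (13 of 15) ran the other way, at 2.78 to 32.3 CPM in High and 72.8 to 203 CPM in shallow Low pancreas, with 20.7 and 29.1 CPM in the deeper Low libraries.

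**Figure D1:**
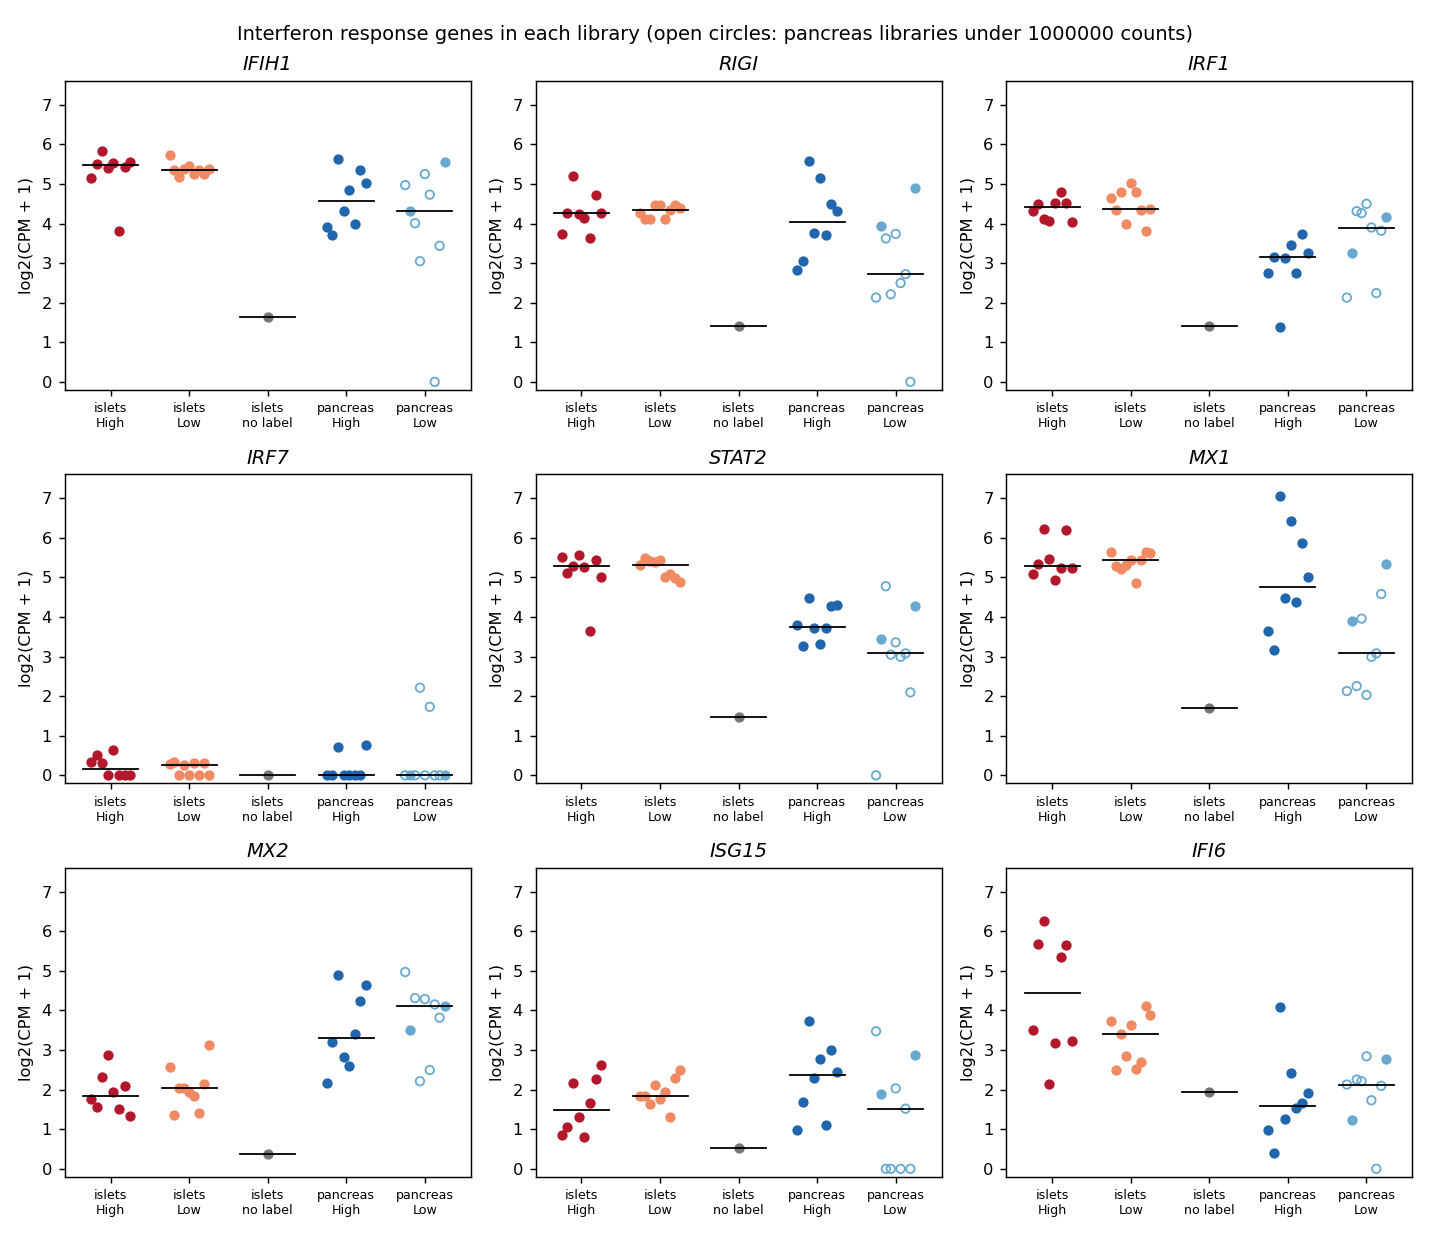
Level of each gene in each library, as log2(CPM + 1), for islets High, islets Low, the unlabelled islets, pancreas High and pancreas Low; each point is a library, the line is the group median and open circles are the 7 shallow pancreas libraries. IFI6 spans 3.42 to 76.1 CPM in High islets, MX2 lies lower in islets than in pancreas, and MX1 spreads from 7.93 to 131.4 CPM in High pancreas.

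Cultured islets were compared with pancreas first. Of the 7 genes that passed the low-count filter, 3 were higher in islets (IFI6, STAT2 and IRF1) and 1 was lower (MX2), while IFIH1, RIGI and MX1 did not pass the test and ISG15 and IRF7 fell below the filter. All 12339 tested genes give the background, with 31.1% called higher and 31.5% called lower in islets at an adjusted p of 0.05 (quasi-likelihood test of edgeR, Benjamini-Hochberg adjusted over all tested genes, as for each adjusted p here). Calls in 4 of 7 genes are thus near the share of all genes. The median log2 fold change was 0.11 over those 7, against −0.01 over all genes. Fold changes come from TMM-scaled libraries, and since the scaling factors were 1.15 to 1.54 in 16 of the 17 labelled islet libraries and 0.545 to 1.31 in pancreas, they lie below what plain CPM shows.

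Of the sensors, IFIH1 (ENSSSCG00000015897), which detects long double-stranded RNA, had 2.09, 40.8 and 55.5 CPM as the lowest, median and highest of 18 islet libraries, against 0, 18.9 and 48.5 CPM in 17 pancreas libraries. By CPM it was higher in the islets of 14 of the 16 animals measured in both tissues, and after TMM scaling of 9. The ranges overlapped, and the estimate, 0.11 on the log2 scale (SE 0.19, adjusted p = 0.622), did not pass. Without a low-count filter it was 0.50 (adjusted p = 0.0493). RIGI (ENSSSCG00000030408), which detects short double-stranded RNA with 5′ triphosphates, had 1.64, 18.2 and 35.9 CPM in islets and 0, 12.2 and 46.8 CPM in pancreas. Its highest value was in pancreas, and it was higher in the islets of 12 of 16 animals by CPM and of 10 by scaled values. The pancreas value of 0 was in the shallow library of 14HS7, where 3 counts equal 9.83 CPM, so it cannot be ranked below the lowest islet value. Its estimate had the other sign, at −0.40 on the log2 scale (SE 0.23, adjusted p = 0.127). It passed only without the shallow libraries among the settings tried, at −0.63 (adjusted p = 0.0123).

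Of the transcription factors, STAT2 (ENSSSCG00000000396), which joins IRF9 in the complex formed after type I interferon, had 1.79, 37.9 and 46.1 CPM in islets and 0, 9.85 and 26.4 CPM in pancreas. It was higher in islets by 0.87 on the log2 scale (SE 0.17, adjusted p = 3.45e-05), and higher in the islets of 15 of the 16 animals measured in both tissues, or of 14 after TMM scaling. The tissues overlapped through the islets of 12AS51 (1.79 CPM) and of 15AS28 (11.4 CPM), and by plain CPM the other islet libraries were all above every pancreas library. On TMM-scaled CPM the overlap was wider, since the pancreas reached 28.4 in 14BS54 and 8 of 18 islet libraries lay above that. IRF1 (ENSSSCG00000014277), an activator of interferon and antigen presentation genes, had 1.64, 19.4 and 31.5 CPM in islets and 1.63, 8.61 and 21.6 CPM in pancreas. It was higher in islets by 0.62 (SE 0.21, adjusted p = 0.0103), in 14 of 16 animals by CPM and in 11 by scaled values. The call was lost when the animal was fitted as a block, with an estimate of 0.45 (adjusted p = 0.127). That fit used only the 16 animals with both tissues, so its set of libraries differed too. It was also lost with upper-quartile scaling, where the estimate was 0.50 (adjusted p = 0.0533). IRF7 (ENSSSCG00000012853), which amplifies interferon production, had 12 counts over the 18 islet libraries and 6 over the 17 pancreas libraries, with at most 3 in any library. It was not detectable above the floor in either tissue at this depth, and no fold change is given.

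Of the effectors, MX1 and MX2 are neighbouring paralogs. MX2 (ENSSSCG00000012076), a dynamin-like GTPase that blocks several viruses, had 0.298, 2.84 and 7.76 CPM in islets and 3.53, 13.1 and 30.4 CPM in pancreas. It was lower in the islets of 16 of 16 animals on both scales, at −2.64 on the log2 scale (SE 0.26, adjusted p = 1.59e-11), and the ranges met only between 3.53 and 7.76 CPM. MX1 (ENSSSCG00000012077), the GTPase that inhibits influenza viruses, had 2.24, 39.1 and 73.6 CPM in islets and 3.09, 14.6 and 131.4 CPM in pancreas. The islet values lay inside the pancreas range apart from that of 12AS51, and the estimate, −0.19 on the log2 scale (SE 0.30, adjusted p = 0.594), did not pass. Its sign turned under some settings without passing, reaching 0.40 in the fit blocked by animal (adjusted p = 0.304). Reads shared between these paralogs could have been assigned to either, so their split is uncertain.

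IFI6 (ENSSSCG00000034570), a mitochondrial and endoplasmic reticulum protein that restrains flavivirus replication in human cells, had 2.83, 9.999 and 76.1 CPM in islets and 0, 2.75 and 15.9 CPM in pancreas. It was higher in islets by 1.93 (SE 0.49, adjusted p = 0.000836), in 16 of 16 animals by CPM and in 13 by scaled values. The shallow pancreas libraries held 0 to 2 counts of IFI6, below the floor, so the direction in those animals is uncertain. The ranges overlapped, and the highest islet values came from 4 libraries described further on. The islets of 12AS51 had 19 counts, which is 2.83 CPM but 23.0 on TMM-scaled CPM. ISG15 (ENSSSCG00000040575), a ubiquitin-like modifier, had 0.448, 2.50 and 5.13 CPM in islets and 0, 2.68 and 12.4 CPM in pancreas, with 4 of 17 pancreas libraries at 0. By CPM it was higher in the islets of 8 animals and lower in those of 8, and by scaled values higher in 6 and lower in 10. It was below the filter in the full set of libraries. In 10 of the 35 fits that each left out 1 library it passed the filter, and it was then lower in islets by −1.33 to −1.26 on the log2 scale (adjusted p from 0.000464 to 0.00116). It was also tested in 4 other settings, no low-count filter and a filter of 1 CPM among them. There it was called lower in all 4 (adjusted p from 0.000326 to 0.0207).

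**Figure D2:**
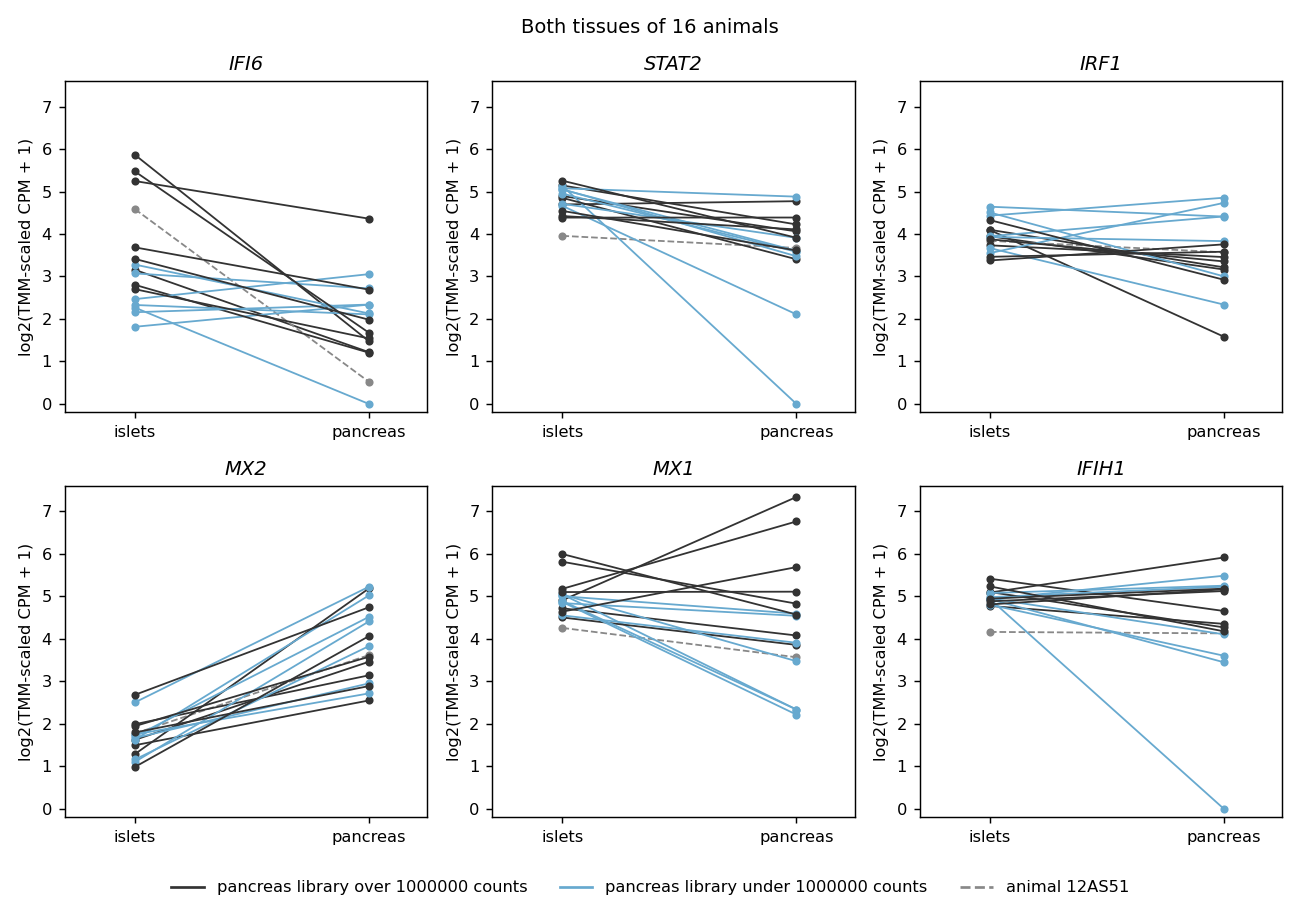
Log2 of TMM-scaled CPM + 1 in islets (left) and pancreas (right) of 16 animals, joined by a line for each animal; blue lines are animals with a shallow pancreas library and the dashed line is 12AS51. MX2 is lower in the islets of all 16 animals, IFI6 higher in 13 and STAT2 higher in 14, while MX1 is higher in 12.

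Markers of other cells also differed between the tissues. The endocrine markers stood at a median of 77642 CPM in islets and 697 CPM in pancreas, and the acinar markers at 16.6 and 120360 CPM. The myeloid markers (14 of 15 with a row) had a range of 13.6 to 96.1 CPM in islets and 51.1 to 295 CPM in pancreas, with at most 3 of them at 0 in a library. The lymphocyte markers had a range of 2.09 to 9.03 CPM in islets and 2.78 to 203 CPM in pancreas, and up to 9 of the 13 were at 0 in an islet library, with CD79B at 0 in every High islet library. The part of these cells in the differences above was not tested, and in bulk tissue fewer cells of a type and less RNA per cell cannot be told apart. Tissue and the 7 days of culture cannot be told apart either. The RefSeq annotation of Sscrofa11.1 has a gene overlapping STAT2 (IL23A), IRF1 (SLC22A5), RIGI (ACO1) and ISG15 (LOC110261384). The strand setting of the counting is not given in the sources used here. Reads from a stretch that both genes of a pair share therefore cannot be told apart, and the extent of overlap was not measured.

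The rest of the interferon pathway was followed in 98 further genes, of which 80 had a row and 55 passed the filter. In islets 15 of these were higher and 23 lower, against the same background of 31.1% and 31.5%, with a median log2 fold change of −0.19. Of 11 listed interferon ligands 5 had a row. Over 18 islet and 17 pancreas libraries, IFNB1 had 4 and 2 counts, IFNG 37 and 57, IFNK 9 and 68, IFNE 17 and 38, and IFN-DELTA-1 3 and 62, and none of the 5 passed the filter. These counts are not scaled for depth, which was mostly greater in islets. Summed CPM of the 5 had a median of 0.645 in islets and 9.43 in pancreas, with 4.95 in High pancreas, where no library was shallow. Of 5 tested receptors 2 were higher and 2 lower. IFNAR2, a chain of the type I receptor, was higher by 0.64 (SE 0.15, adjusted p = 0.000263). Its partner IFNAR1 stood at 0.11 (SE 0.17, adjusted p = 0.575) and did not pass. IFNGR1, the ligand-binding chain for interferon gamma, was lower by −1.96 (SE 0.23, adjusted p = 1.08e-09) and IFNLR1, the interferon lambda receptor, by −1.52 (SE 0.22, adjusted p = 1.01e-07).

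Below the receptors, 3 of 5 kinases and STATs were higher and 1 was lower. JAK1 was higher by 1.13 (SE 0.22) and TYK2, the other kinase of the type I receptor, lower by −0.84 (SE 0.14). IRF9, the DNA-binding subunit of the complex with STAT2, had 7 counts over 18 islet libraries and 23 over 17 pancreas libraries, not scaled for depth, and was not tested. SOCS3, a feedback inhibitor of cytokine receptors, was the 1 called gene among 3 tested negative regulators and was higher by 1.27 (SE 0.31, adjusted p = 0.000579). Of 4 tested interferon regulatory factors 2 were lower, IRF5 by −0.84 (SE 0.37, adjusted p = 0.0445) and IRF2 by −0.28 (SE 0.12, adjusted p = 0.0465). Neither direction held in every setting, since IRF5 stood at 0.15 without the shallow libraries and IRF2 at 0.091 without a low-count filter. Of 8 tested sensors and adaptors, TRAF3 (1.15, SE 0.16) and the kinase TBK1 (0.93, SE 0.20) were among the 2 higher and TICAM1, the adaptor of TLR3, among the 2 lower (−0.87, SE 0.20).

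Of 28 tested antiviral effectors 7 were higher and 14 lower in islets. EPSTI1 was lower by −2.82 (SE 0.29), RSAD2, which encodes viperin, by −2.55 (SE 0.53), and SHISA5, an endoplasmic reticulum protein, was higher by 2.60 (SE 0.17). HERC5 and HERC6, the ISG15 ligases of human (HERC5) and mouse (HERC6), were both lower, by −1.91 (SE 0.21) and −1.71 (SE 0.22). Each of these 5 genes had an adjusted p of 7.12e-05 (RSAD2) or smaller. No interferon-induced chemokine passed the filter, with CXCL10 at 24 counts over the islets and 69 over the pancreas libraries, not scaled for depth. Summed CPM of the 4 listed chemokines had a median of 0.482 in islets and 5.84 in pancreas, with 3.35 in High pancreas.

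**Figure D3:**
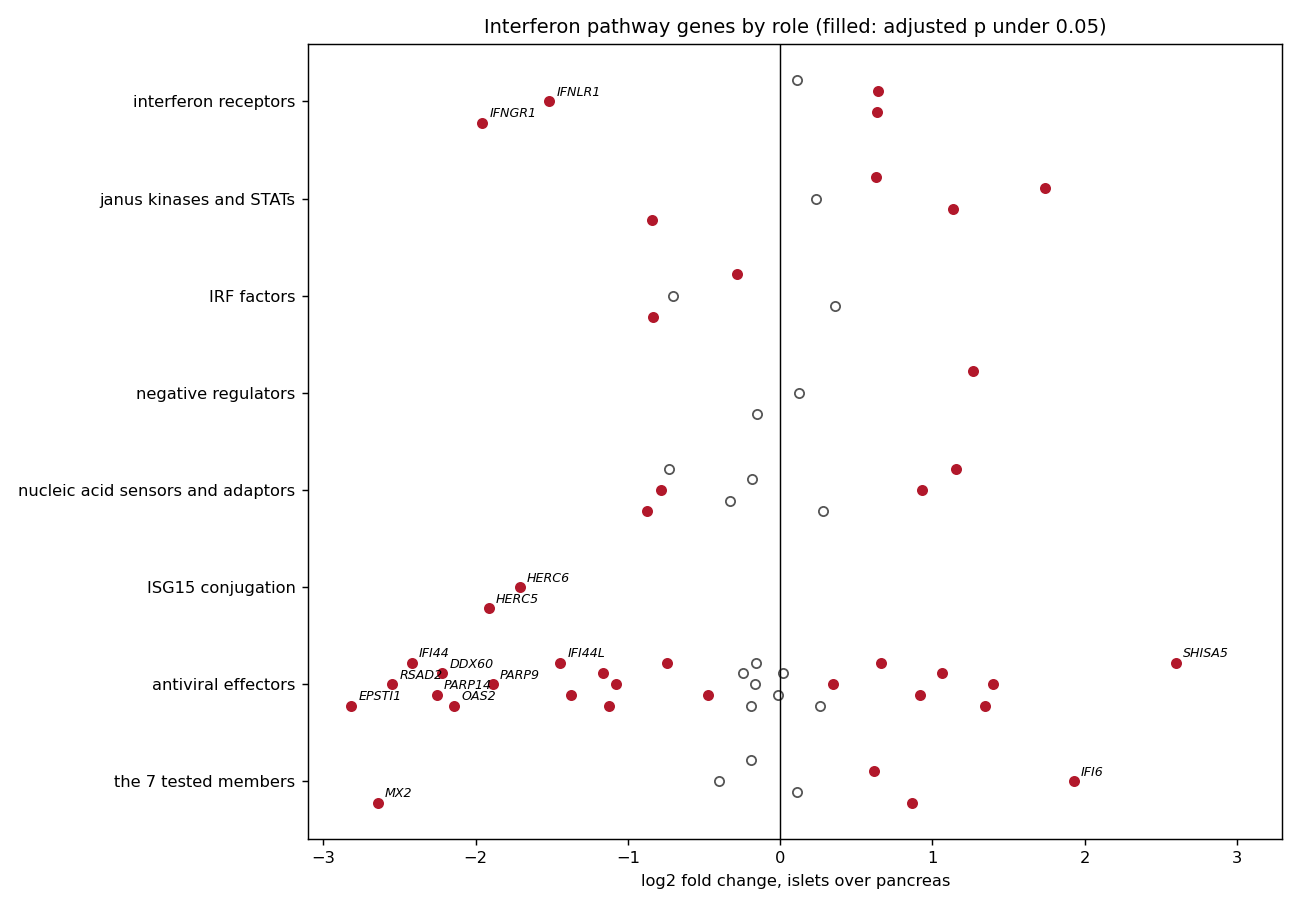
Log2 fold change of islets over pancreas for 55 tested pathway genes in 7 role groups and for the 7 tested members; filled points passed an adjusted p of 0.05, and most genes beyond 1.4 in either direction are labelled. MX2 (−2.64) lies beside the effectors EPSTI1 (−2.82) and RSAD2 (−2.55), and IFI6 (1.93) below the effector SHISA5 (2.60).

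The density labels were then compared within the pancreas, where 8 High libraries were set against 9 Low ones. MX1 was higher in High pancreas and was the 1 gene called among 6 tested. Its 8 High libraries had 7.93, 26.4 and 131.4 CPM as lowest, median and highest, against 3.09, 7.46 and 39.8 CPM in the 9 Low ones. The highest values were in 12FS131 (131.4 CPM), 15LS26 (85.7 CPM) and 16CS60 (57.1 CPM), and the groups overlapped between 7.93 and 39.8 CPM. The log2 fold change was 1.70 (SE 0.50, adjusted p = 0.00998), against a background of 18.8% called higher and 21.5% called lower among 10634 tested genes. It passed without any 1 library, with estimates of 1.28 (without 12FS131) to 2.04 (without 15LS30).

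The 7 shallow libraries held 21 MX1 counts in all, and 3 of them held 1 count each. In the deeper Low libraries MX1 had 13.9 CPM (31 counts) and 39.8 CPM (75 counts), both inside the High range. Without the shallow libraries the estimate was 1.29 and did not pass (adjusted p = 0.765), and no gene of 13217 was called in either direction. Without the animals whose codes begin with 14, all of them labelled Low, it was 1.52 (adjusted p = 0.411), and with limma-voom on all libraries 1.15 (adjusted p = 0.118). Other values moved with the shallow libraries. Beside the depth, acinar and lymphocyte levels given above, the duct markers (8 of 10 with a row) summed to 1698 to 3273 CPM in High pancreas and 397 to 711 CPM in the shallow Low libraries. The endothelial markers (10 of 12) had medians of 410 CPM in High and 165 CPM in shallow Low pancreas, and the myeloid markers 92.8 and 272 CPM. In the deeper Low libraries depth and the lymphocyte and duct sums (2403 and 2551 CPM) lay inside the High range, while the acinar sums lay below it. Their endocrine sums were 835 CPM, inside the High range of 659 to 3364 CPM, and 16221 CPM, above it. The part of these in the MX1 difference was not tested.

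The other 5 tested genes did not pass between High and Low pancreas. RIGI had 6.09, 15.7 and 46.8 CPM in High and 0, 5.60 and 28.6 CPM in Low pancreas, which differ by 0.91 on the log2 scale (SE 0.43, adjusted p = 0.0879). IRF1 lay the other way, with 1.63, 7.85 and 12.4 CPM in High and 3.37, 13.9 and 21.6 CPM in Low pancreas (−0.79, SE 0.37, adjusted p = 0.0929). The groups overlapped for both genes. RIGI passed with a filter of 1 CPM (1.19, adjusted p = 0.0314), with no filter (1.27, adjusted p = 0.0130), and without the pancreas of 11KS28 (1.09, adjusted p = 0.0409), 12AS51 (1.09, adjusted p = 0.0466) or 15LS30 (1.20, adjusted p = 0.0350). IRF1 passed with upper-quartile scaling (−0.99, adjusted p = 0.0458) and without the pancreas of 12FS161 (−0.99, adjusted p = 0.0343). STAT2 (0.47, SE 0.34), IFIH1 (0.26, SE 0.37) and MX2 (−0.23, SE 0.42) had adjusted p from 0.265 to 0.693, and of these STAT2 passed with no low-count filter (0.88, adjusted p = 0.0381). IFI6, ISG15 and IRF7 were below the filter, and IFI6 had medians of 2.03 CPM in High and 3.37 CPM in Low pancreas. That Low median was 1 count in the shallow library of 12FS135, and every shallow library held 0 to 2 IFI6 counts, below the floor. The medians therefore do not show a higher level in Low pancreas.

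Of 54 further pathway genes tested in the pancreas, 6 were higher and 9 lower in High libraries, beside the background of 18.8% and 21.5%. EIF2AK2, the RNA-activated kinase PKR, was higher by 1.63 (SE 0.44, adjusted p = 0.00584), with medians of 60.8 CPM in High and 21.8 CPM in Low. JAK1 was higher by 1.01 (SE 0.31, adjusted p = 0.0126) and TLR3, an endosomal sensor of double-stranded RNA, by 1.10 (SE 0.41, adjusted p = 0.0364). Lower were DHX58, the RIG-I-like receptor LGP2, by −2.47 (SE 0.60, adjusted p = 0.00275), IRF5 by −2.10 (SE 0.58, adjusted p = 0.00697) and the kinase IKBKE by −2.09 (SE 0.45, adjusted p = 0.00107). IFNLR1 was lower by −1.23 (SE 0.33, adjusted p = 0.00586) and DDX60 by −1.90 (SE 0.66, adjusted p = 0.0251). Without the shallow libraries none of these calls remained, and the estimates of IRF5 (0.32) and DHX58 (0.66) changed sign.

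In islets, 8 High libraries were set against 9 Low ones, by the label of the islet sample. None of 8 tested genes was called, and neither was any of 12070 genes in all, so the background was 0% higher and 0% lower. At an unadjusted p below 0.05 there were 257 genes, which is 2.13% of those tested, and DESeq2 and limma-voom called none of the 8 genes either. IFI6 was the 1 gene of the 8 below that level. It had 3.42, 25.1 and 76.1 CPM in High islets and 4.63, 9.64 and 16.4 CPM in Low islets, and the log2 fold change was 1.91 (SE 0.56, unadjusted p = 0.00363, adjusted p = 0.999 by edgeR). The High group fell into 4 libraries at 39.8 to 76.1 CPM and 4 at 3.42 to 10.4 CPM, of which 3 lay inside the Low range and 1 below it. Estimates of MX1 (0.29, SE 0.19), RIGI (0.15, SE 0.17), IFIH1 (0.059, SE 0.13), STAT2 (0.037, SE 0.15), IRF1 (0.021, SE 0.22), MX2 (−0.057, SE 0.32) and ISG15 (−0.22, SE 0.35) had adjusted p of 0.999. Of 53 further pathway genes none was called and 1 had an unadjusted p below 0.05.

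Whether the density difference itself differed between the tissues was tested in a joint fit of the 34 labelled libraries. For MX1 the High against Low difference in pancreas exceeded that in islets by 1.57 on the log2 scale (SE 0.57, adjusted p = 0.0269), and it was the 1 gene called of 8. The background was 17.7% called higher and 22.2% called lower among 14337 genes. The call was lost in the fit blocked by animal (1.50, adjusted p = 0.0771), with upper-quartile scaling (1.34, adjusted p = 0.0588), with limma-voom (1.25, adjusted p = 0.0840) and without the shallow libraries (1.08, adjusted p = 0.585) or the animals with codes beginning 14 (1.41, adjusted p = 0.500). It was also lost without 12FS131 (1.14, adjusted p = 0.0618), 12FS135 (1.45, adjusted p = 0.0503) or 14ES73 (1.44, with an adjusted p just above the threshold) of the pancreas group. For IFI6 the difference was −1.31 (SE 1.08, adjusted p = 0.338) and for RIGI 0.89 (SE 0.46, adjusted p = 0.115), and neither passed. RIGI did pass without the pancreas of 15LS30 (1.29, adjusted p = 0.0282) or the islets of 12FS133 (1.10, adjusted p = 0.0485), and with no low-count filter (1.26, adjusted p = 0.0323), where STAT2 passed too (1.06, adjusted p = 0.0214). Of 64 further pathway genes 12 were called higher and 11 lower. They included EIF2AK2 at 1.81 (SE 0.48), the adaptor STING1 at −3.27 (SE 0.74) and IFNG at −4.25 (SE 1.25). The pancreas counts of IFNG were 15 over 8 High libraries and 42 over 9 Low ones, of which 7 were shallow. Over all genes, 9 of 15210 were called higher and 52 lower in the joint fit without the shallow libraries. Without the animals with codes beginning 14, 0 of 14530 were called higher and 9 lower.

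**Figure D4:**
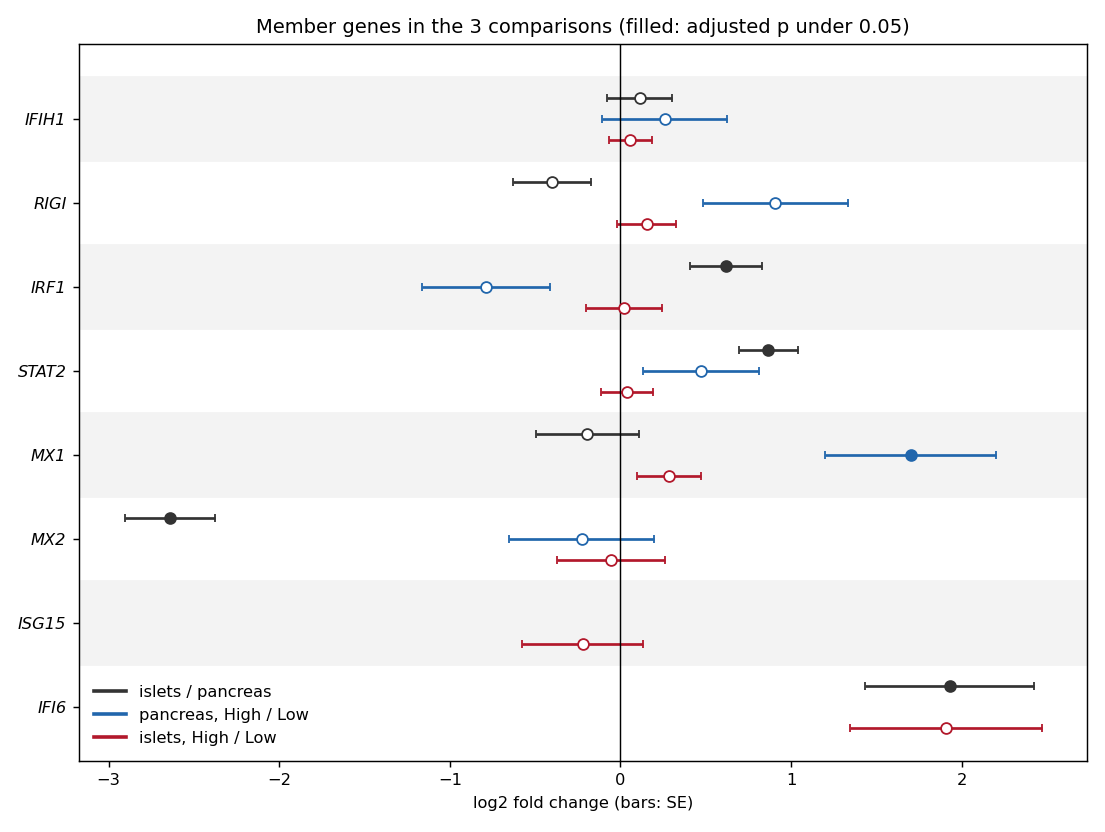
Log2 fold changes with their SE as bars for islets over pancreas (dark grey), High over Low pancreas (blue) and High over Low islets (red); filled points passed an adjusted p of 0.05. IFI6, STAT2 and IRF1 (higher) and MX2 (lower) are filled for islets over pancreas, MX1 is filled for the pancreas, and no point is filled for the islets.

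Single libraries had the highest levels of several of these genes, and their ranks are described here without a test. The outlier check within groups, given further on, flagged low values only and none of the highest. For IFI6 in the 12FS131 pancreas the gap to the next High library was 0.452 of the range on log2(CPM + 1), below the limit of 0.526. The pancreas of animal 12FS131, labelled High, had the highest scaled level of its tissue for 4 of the 7 tested genes. There IFI6 reached 19.5 scaled CPM (next highest 7.31), MX1 161.2 (next 108), IFIH1 59.4 (next 43.9) and RIGI 57.4 (next 43.6). The next highest values of IFI6 and IFIH1 were 2 and 12 counts in the shallow library of 14ES73. IRF1 went the other way, with 1.63 CPM in the 12FS131 pancreas as the lowest of all 17. The 12FS131 pancreas was also highest for 14 of 55 further pathway genes (25.5%), against 5.89% of all 12339 tested genes. Among those 14 were OAS2, an antiviral enzyme that senses double-stranded RNA, at 170 scaled CPM (next 105), EIF2AK2 at 246 (next 146), HERC6 at 70.2 (next 39.1) and IFIT1 at 43.9 (next 21.9).

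The islets of the same animal were highest for none of the 7 genes, and their IFI6 level was 37.0 scaled CPM, below those of 12FS133 (57.2), 15AS28 (48.3) and 15LS29 (43.4). The myeloid markers of the 12FS131 pancreas summed to 87.5 CPM and its lymphocyte markers to 6.50 CPM, both below the High medians of 92.8 and 9.67 CPM. Its depth of 3074819 counts and acinar sum of 207159 CPM lay inside the range of the other High pancreas libraries.

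Among islets, the library of 12FS133 was highest for 3 of the 7 genes and for 8 of 55 pathway genes (14.5%, against 4.91% of all genes). It had 57.2 scaled CPM of IFI6, 41.8 of IFIH1 and 27.03 of RIGI. The library of 15LS29 was highest for MX1 (62.9 scaled CPM) and STAT2 (37.2) and for 9 of the 55 (16.4%, against 8.35%), IFI44 and DDX60 among them. The unlabelled islets of 12AS51 were highest for 17 of the 55 (30.9%), but also for 28.7% of all genes and lowest for 33.4%. The pancreas libraries of 12FS133 and 15LS29 did not share the rank, with 1.39 and 1.91 CPM of IFI6.

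IFI6 varied more between islet libraries than nearly all other genes. Over the 17 labelled islet libraries the SD of its log2(scaled CPM + 1) was 1.30, and 0.259% of the 12339 tested genes had a larger one. The 4 High islet libraries with the most IFI6 were those of 12FS133 (76.1 CPM), 12FS131 (50.0), 15LS29 (49.6) and 15AS28 (39.8). Of these, 12FS133 and 15LS29 also had the most MX1, at 73.6 and 71.9 CPM, whereas 12FS131 and 15AS28 had 39.3 and 36.8 CPM, within the Low islet range of 27.8 to 48.9 CPM. On scaled CPM 12FS131 (29.1) was again within the Low range of 22.5 to 35.2, but 15AS28 (44.6) was above it. In the 10 pancreas libraries that were not shallow, MX1 had an SD of 1.22, with a larger one in 1.10% of genes, and IFI6 an SD of 1.07, with a larger one in 2.35%.

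**Figure D5:**
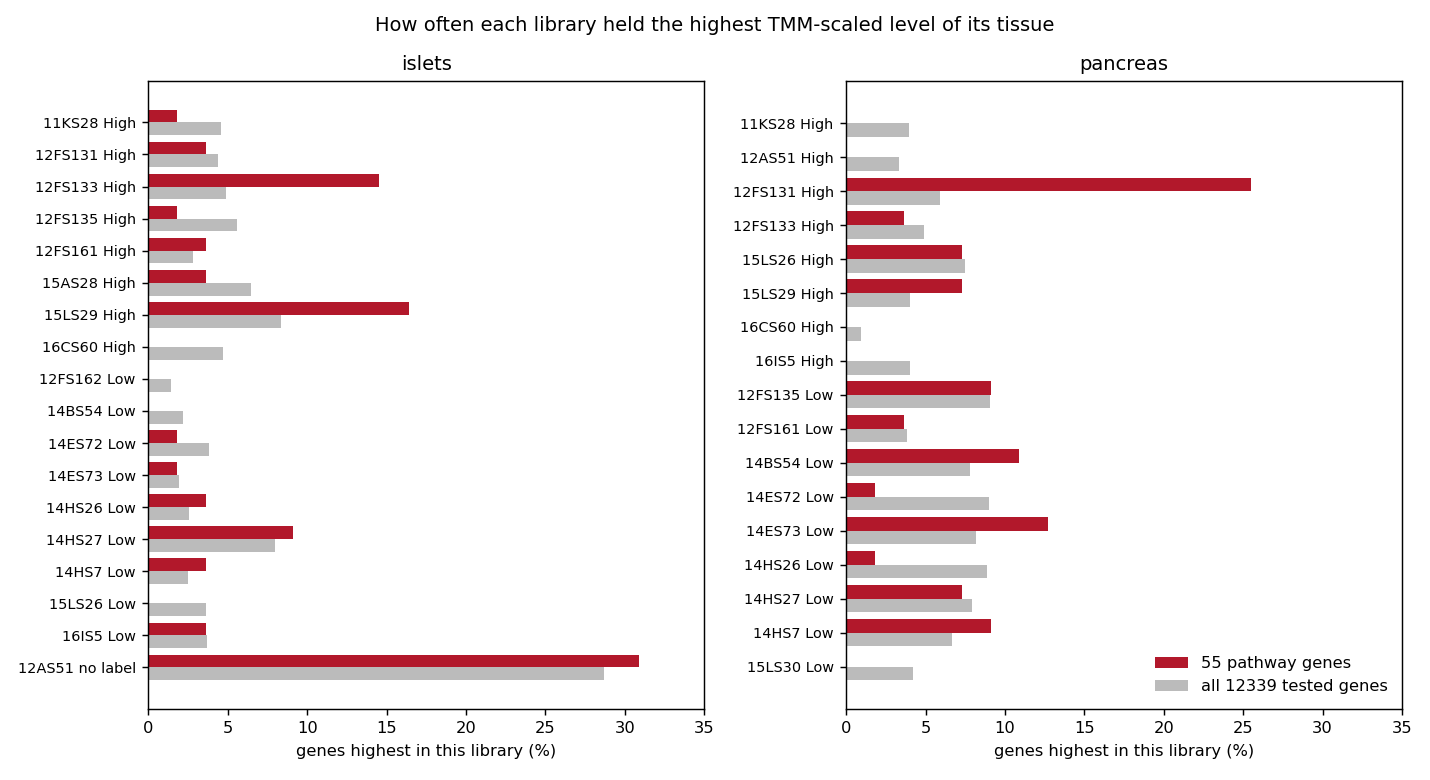
Share of 55 pathway genes (red) and of all 12339 tested genes (grey) for which each library had the highest TMM-scaled level of its tissue, in percent, for islets (left) and pancreas (right). The 12FS131 pancreas holds 25.5% of the pathway genes against 5.89% of all genes, and the unlabelled 12AS51 islets hold 30.9% against 28.7%.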

How the data were processed

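RNA sequencing of pig pancreas and cultured islets was analysed from the whole-number read counts per Ensembl gene that the authors deposited in separate tables for pancreas and islets. The submitters' processing notes name the build susScr3 and, with no role, HISAT2 2.0.2, edgeR, Subread and FastQC. Annotation, strand setting and other options are not given there. Animal code and tissue in the column names identified 35 of the 37 samples, and 1 further column fitted none of them and stayed out. Islets of 15LS27 and of 15LS30 were not analysed here. For 2 islet samples (11KS28 and 12AS51) the source name reads Pancreas, and the title was followed.

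Counts were fitted over all genes with edgeR 4.0.16 in R 4.3.3 (filterByExpr, TMM scaling and robust quasi-likelihood tests, all two-sided), with Benjamini-Hochberg adjustment over all tested genes and a threshold of 0.05, and the fits were tested on simulated data. Alternatives were RLE and upper-quartile scaling, a filter of 1 CPM or none, DESeq2 1.42.0, limma-voom (limma 3.58.1), the animal as a block, subsets of animals and each library left out. Levels by library are plotted as log2(CPM + 1), and the paired levels as log2(TMM-scaled CPM + 1). CPM uses library totals, and floors cover counting error only. Libraries with a shared animal code in the titles come from 1 animal, which pairs 16 animals across tissues. Deviations from group means correlated at −0.056 to 0.168 between the tissues of an animal, with a median of 0.025. No 2 libraries of a group were duplicates, with a chi-square of at least 3.35 per degree of freedom in each of 128 pairs. The labels name animals but not separate extractions, so p-values measure the spread between animals and libraries.

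The genes and lists were chosen with earlier results of these data known. All 9 genes are named. Of the other pathway lists, at most the 3 called genes with the largest fold change are named per list and comparison, plus IRF9, IFNAR1 and IFNAR2. Some genes that this rule names are not reported here, though they stay in the counts. Ligand and chemokine counts, and the pathway genes named for single libraries, were chosen after their values were seen. Symbols came from a table of Ensembl identifiers, and overlapping genes from RefSeq (Sscrofa11.1), of which no coordinates are used because the build differs.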

Additional observations from a re-analysis of the deposited data

Results flagged for a closer look

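Within groups, 4 of 36 combinations of gene and group held a library far from the others, where chance flags about 1 in 20. IRF1 was 1.63 CPM in the High pancreas library of 12FS131, against 5.72 to 12.4 CPM in the other 7. STAT2 was 11.4 CPM in the High islets of 15AS28, against 31.4 to 46.1 CPM, and IFIH1 was 13.0 CPM in the same library, against 34.5 to 55.5 CPM. The scaling factor of that library was 0.828, against 1.15 to 1.54 in the other labelled islets, and its 10 most abundant genes held 52.3% of its counts. IFIH1 was 0 CPM in the Low pancreas library of 14HS27, against 7.28 to 45.6 CPM in the others, and 3 counts would be 5.60 CPM there. The difference between the tissues in the density effect on MX1, 1.57 on the log2 scale, was tested by an interaction term.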

How the results depend on the processing

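The counts of called genes in islets against pancreas (4 of 7) and in High against Low islets (0 of 8) ran from 3 to 6 and stayed at 0 under the alternatives. In the pancreas the count of 1 became 2 with upper-quartile scaling (MX1 and IRF1) and with a filter of 1 CPM, 3 with no filter, and 0 with limma-voom, without the shallow libraries, without the animals with codes beginning 14, and among animals labelled alike in both tissues (2 genes tested). Leaving out single libraries gave 1 to 2. For the difference between tissues the count of 1 became 3 with no filter and 0 with upper-quartile scaling, limma-voom, the animal as a replicate block, and without the shallow libraries or the 14 animals, and single libraries left out gave 0 to 2. The blocked fits, which also left out unpaired libraries, ended 2 calls among the 9 genes, IRF1 in islets against pancreas (0.45) and MX1 in the difference between tissues (1.50), and no other. Estimates of called genes changed sign without the shallow libraries for IRF5 (0.15 in islets against pancreas, 0.32 in High against Low pancreas, 0.38 in the difference between tissues) and DHX58 (0.66 in pancreas and 0.37 in the difference), and for IRF2 with no filter (0.091 in islets against pancreas). The cause was not tested. Over 72 gene results, 2478 refits kept their side of the threshold, 71 of these with a change of sign in a gene that passed neither time, while 164 lost the call and 20 gained it. Upper-quartile scaling moved the median of all genes to −0.14 in islets against pancreas, −0.11 in the pancreas and −0.26 in the difference between tissues. With no low-count filter, over more genes, it was −0.44, −0.51 and −0.32 in the same order, against −0.01, 0.07 and −0.0025 in the main fits. The estimates quoted with no filter for IFIH1, RIGI, STAT2 and IRF2 were all higher than the main ones. The values above are not corrected for these shifts. The shallow libraries limit what can be seen in Low pancreas, where 3 counts equal 5.60 to 11.3 CPM.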

Other observations

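The genes whose level followed the mean of the 8 detected interferon response genes most closely over the 18 islet libraries were IDH1 (Pearson r 0.957), B4GALT4 (0.957), MORC3 (0.956), EIF2AK2 (0.955) and DNAJB9 (0.955), with Spearman's rho of 0.692 to 0.740. The islets of 12AS51 carried much of this, since the same genes had r of 0.651 to 0.765 over the other 17 libraries. There the closest were ORC6 (0.813), TCEANC (0.775), FZD5 (0.767), EIF2AK2 (0.765) and EPHX1 (0.752). Of these, EIF2AK2 is a gene of the interferon pathway and stood among the first 5 both times. The islet libraries differed in depth and scaling factor. The correlations used log2(CPM + 1) without TMM scaling and are a description of likeness only.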
